A study of Rattus norvegicus with 8 samples.

Results

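In the rat incisor enamel organ, 59 of 22523 array probes gave a signal above the negative-control beads on all 4 secretory-stage arrays and on none of the 4 maturation-stage arrays. Each of these 59 probes carries a different gene identifier, and symbols are those a current gene table gives for it, or the array's own where the table lacks it. They were chosen by their detection p-values, the share of negative-control beads with a signal at least as high: below 0.05 on every secretory-stage array and 0.05 or more on every maturation-stage array. Dspp and Fxyd4 also met these thresholds and were left out by the rule. For comparison, 222 probes met the opposite rule, 9156 were detected on all 8 arrays and 9011 on none. Because the stage difference chose the members, that difference is described here and not tested.

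Each of 4 male Wistar Hannover rats, 4 weeks old, gave 1 sample of each stage, an enamel organ dissected from the lyophilised mandible. Total RNA of each was hybridized as biotin-labelled cRNA to its own Illumina rat array. Arrays are numbered by rat, so that secretory array 1 and maturation array 1 come from the same animal. Each sample pooled the RNA of many cells, so a lower signal can come from fewer cells of a kind or from less RNA per cell, and these cannot be told apart. Of the defining markers of enamel epithelium, the matrix gene Ambn and the amelogenin gene Amelx were detected on all 8 arrays. Of the 11 probes for enamel epithelium markers, 3 were called lower and 1 higher in the maturation stage, and their summed raw signal was 79792 to 86197 in the secretory stage and 67145 to 91284 in the maturation stage. Of 10 macrophage and leukocyte marker probes, 6 were called higher and none lower in the maturation stage, with summed raw signals of 3963 to 4752 and 12975 to 15576. The part of such differences in cell content in the choice of members was not tested.

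The enamel organ is the epithelium that covers the forming crown. In the secretory stage its ameloblasts deposit enamel matrix proteins, and in the maturation stage they take up the degraded matrix while mineral is added. The rat incisor grows throughout life, so both stages lie along a single tooth. Among the signals that dental epithelium is known for, sonic hedgehog is a secreted ligand: it binds the receptor patched, which releases the transducer smoothened, and Gli transcription factors then switch on target genes that include patched and the ligand-binding inhibitor Hhip.

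Most members were dim. Raw signals, the mean over the beads of a probe in array units without background correction, averaged above 500 in the secretory stage for 2 members (Ly6d and Scn10a), above 200 for 9 and above 150 for 20. The median over the 59 of the mean secretory-stage signal was 139, with a range of 119.6 (Zfp711) to 766 (Ly6d). Over all 9540 probes detected on the 4 secretory-stage arrays the corresponding median was 312, and 14.96% of those probes lay below the median member. Probes bind with different strength, so these signals do not order the genes by amount of RNA.

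The lowest signal at which a probe counted as detected was 115 to 117 on the secretory-stage arrays and 121 to 130.1 on the maturation-stage arrays, where the background was brighter as well. The median signal of probes undetected on all arrays was 100.5 to 102 in the secretory stage and 106 to 111 in the maturation stage. The same raw signal could therefore be detected in one stage and undetected in the other. For 43 members all 4 raw secretory-stage signals exceeded all 4 raw maturation-stage signals, as they did for 2.7% of all probes. For the other 16 the raw signals of the stages overlapped. After background correction and quantile normalization, secretory-stage values exceeded all maturation-stage values for each of the 59 members, against 14.6% of all probes, and the rule itself favours that outcome. The part of the unequal detection limits in the choice of members was not tested.

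**Figure D1:**
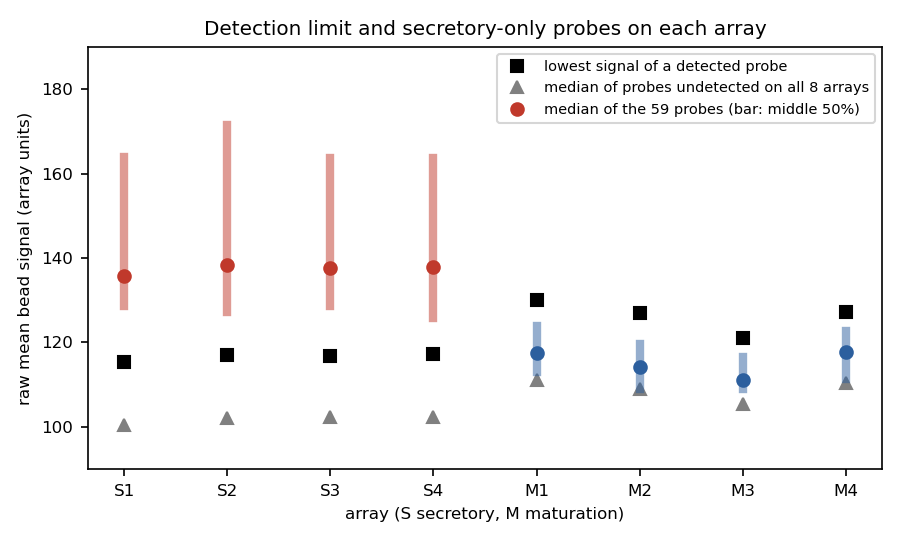
Raw mean bead signal (array units) on each of the 8 arrays: the lowest signal of a detected probe (squares), the median of the probes undetected on all arrays (triangles), and the median of the 59 secretory-only probes (circles, with bars from their lower to their upper quartile). The members' medians sat between 136 and 138 on the secretory-stage arrays, above limits of 115 to 117, and between 111 and 118 on the maturation-stage arrays, below limits of 121 to 130.1.

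**Figure D2:**
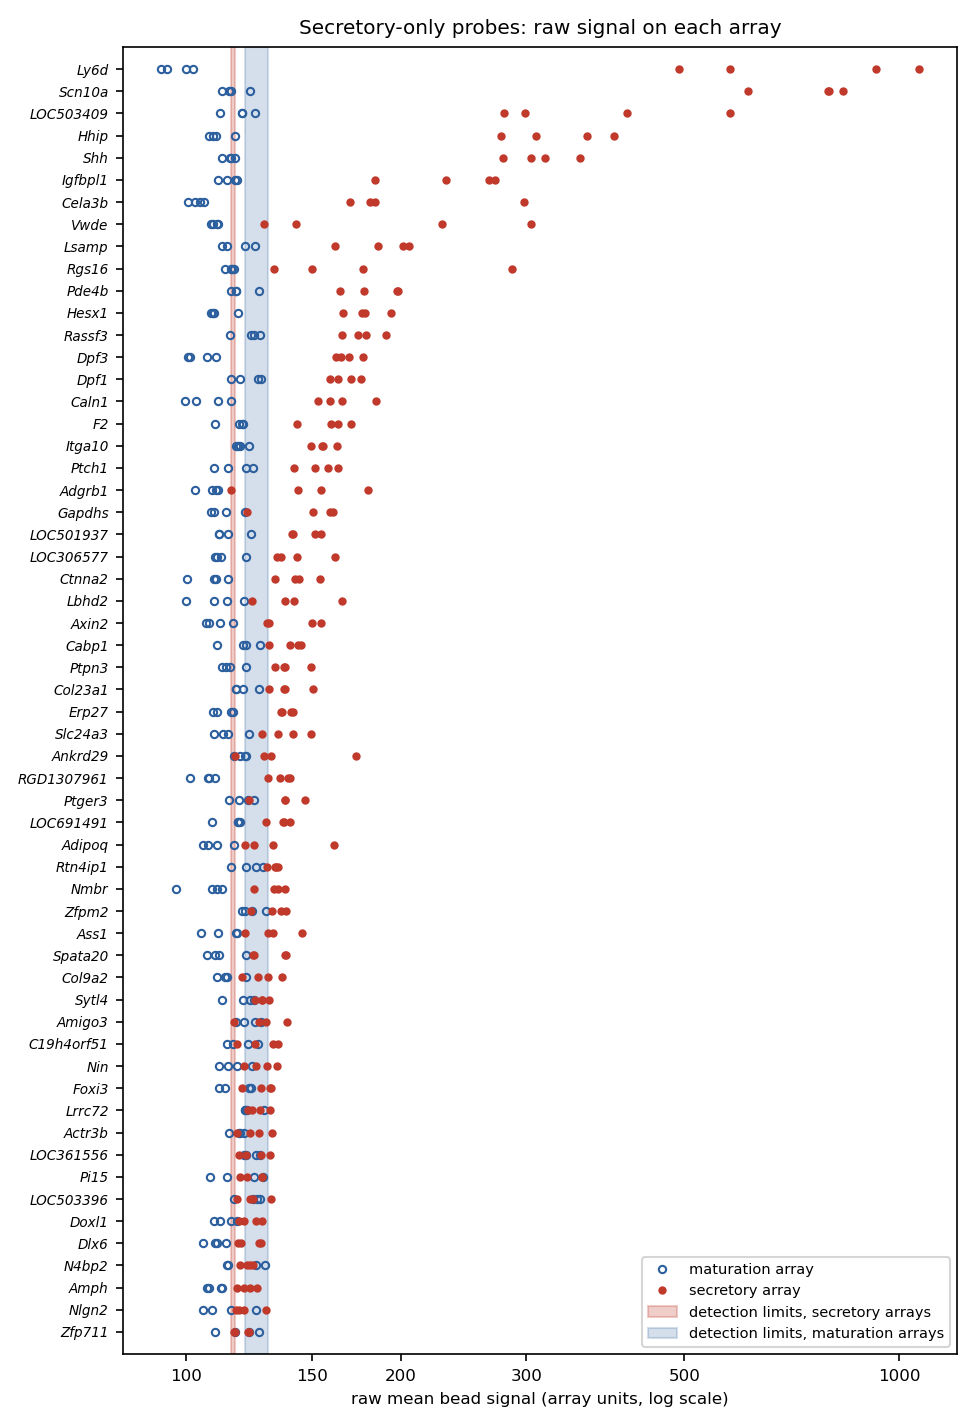
Raw mean bead signal (array units, log scale) of 58 of the 59 secretory-only genes on the 4 secretory-stage arrays (filled) and the 4 maturation-stage arrays (open), ordered by mean secretory-stage signal, with the detection limits of the arrays as bands. Ly6d and Scn10a stood far to the right of their maturation-stage signals, and the 16 genes with overlapping stages lay in the lower part of the plot, from Ankrd29 downwards.

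Since a member's maturation-stage signal was within the background, each fold is given as a lower bound. It sets the mean normalized secretory-stage value against the lowest normalized value among detected probes of each maturation-stage array, or the member's own value where that was higher. The median bound was 0.96 on the log2 scale, or 1.95-fold, and the range was 1.17-fold for Zfp711 to 26.3-fold for Scn10a. On this normalized scale the bound was over 2-fold for 26 members and over 4-fold for 8 of these, counts that were not repeated under other settings. The median ratio of the mean raw signals, background included, was 1.23. In the fit over all probes with limma, 42 members had an adjusted p below 0.05 and a fitted fold of at least 1.8, and 35 also met 1.8-fold at the bound. Without background correction the 42 became 13 and the median bound 0.33 on the log2 scale, and with an offset of 50 they became 21 and 0.54. The same criteria called 3.15% of all probes lower with fitted folds and 3.1% at the bound. Nothing is read from these counts, because the rule used the same contrast.

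From a list of hedgehog genes, the members included the ligand Shh, the receptor Ptch1 and the inhibitor Hhip. Shh gave raw signals of 305, 356, 319 and 279 on secretory arrays 1 to 4 and 115, 115, 117 and 112 on maturation arrays 1 to 4. Every secretory-stage signal was more than the brightest maturation-stage signal, and the rats were close to each other (mean 315 ± 32.5, SD, n = 4). The bound was 8.97-fold.

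Hhip, a membrane-anchored protein that binds hedgehog ligands and holds the pathway down, gave 276, 399, 365 and 309 in the secretory stage and 117, 108, 110.1 and 109 in the maturation stage. Rat 2 was the highest and rat 1 the lowest in the secretory stage, without overlap between the stages, and the bound was 9.79-fold. Ptch1, the main hedgehog receptor, gave 158, 152, 163 and 142 in the secretory stage and 121, 124, 109.5 and 115 in the maturation stage. Its stages did not overlap, and its bound was 2.52-fold. With the maturation-stage threshold raised to a detection p of 0.1, Hhip remained in the set, and Shh and Ptch1 did not. The lowest maturation-stage detection p was 0.0824 for Shh and 0.0667 for Ptch1.

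The promoters of 43 members could be matched in RefSeq's GRCr8 annotation, from 250 bases before to 50 bases after the start of each gene. Those of Ptch1 and Axin2 are shown because both genes are textbook targets of the pathway they restrain, and because their promoters hold a core motif of that pathway's transcription factor. The Gli motif GACCACCCA, searched on both strands, was in 1 of the 43, that of Ptch1, in 0.379% of all 27457 promoters and in 0.316% of the 13295 promoters of genes on the array. The match lies on the opposite strand, 172 to 164 bases before the start. The Tcf/Lef motif CTTTGA was in 3 of the 43 (Axin2, Dpf3 and Pde4b), or 6.98%, against 15.9% of all promoters and 13.95% of those of genes on the array. The Axin2 promoter holds it at 2 places on its own strand, beginning 232 and 132 bases before the start. Capitals mark the matches, both promoters lie on the plus strand, and a match is a run of letters, not a shown binding site. A TATA motif, TATAAA, was in 5 of the 43 (11.6%), in 14.3% of all promoters and in 11.8% of those of genes on the array, and no 2 of the 3 motifs overlapped in the printed sequences.
Ptch1, chr17:1555321-1555620: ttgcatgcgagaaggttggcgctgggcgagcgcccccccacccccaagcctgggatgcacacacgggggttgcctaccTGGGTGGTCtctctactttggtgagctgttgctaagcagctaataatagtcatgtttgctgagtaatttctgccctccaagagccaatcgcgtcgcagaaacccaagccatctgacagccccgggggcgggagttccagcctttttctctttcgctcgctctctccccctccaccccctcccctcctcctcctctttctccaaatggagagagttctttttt
Axin2, chr10:94398535-94398834: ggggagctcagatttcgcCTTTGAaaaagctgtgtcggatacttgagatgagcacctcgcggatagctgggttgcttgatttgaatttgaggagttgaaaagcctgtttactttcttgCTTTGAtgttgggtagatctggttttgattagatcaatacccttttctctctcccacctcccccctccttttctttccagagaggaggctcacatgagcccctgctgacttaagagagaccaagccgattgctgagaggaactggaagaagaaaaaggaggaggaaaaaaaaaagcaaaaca

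The 22 probes of the hedgehog list that the rule did not choose could be tested. Of these, 2 were called lower and 3 higher in the maturation stage, 17 had no call, and 9 were undetected on all arrays, among them the probes for Gli2, Gli3 and Sufu. The median log2 difference of the 9 detected on all arrays of a stage was -0.45. It is the value of Evc2, whose raw signals were 180 to 200 in the secretory stage and 195 to 214 in the maturation stage. The median over all probes, -0.01, includes the 9011 probes undetected on every array, so the medians are not of like sets. Over all probes 3.15% were called lower and 4.6% higher. Scube3, a secreted protein of a family that helps release hedgehog ligands, gave 177, 187, 181 and 164 in the secretory stage and 130.2, 116, 123 and 118 in the maturation stage, and fell by 1.94 on the log2 scale (SE 0.10, limma adjusted p = 8.66e-07), with a fold under 1.8 without background correction (-0.77). It was detected on 2 of the 4 maturation-stage arrays, so part of that stage's values lay within the background. Disp1, the transporter that frees the ligand from the membrane, had a log2 difference of -0.87 (SE 0.11, adjusted p = 0.000324), and lost the call, with its fold under 1.8, without secretory array 3 (-0.79), without maturation array 1 (-0.84) or 4 (-0.81), under median scaling (-0.71), with normexp without negative controls (-0.66), without background correction (-0.31), with an offset of 50 (-0.52) and without normalization between arrays (-0.51). In the other direction, where Dhh was detected on 3 of the 4 secretory-stage arrays, Scube1 had a log2 difference of 1.28 (SE 0.14, adjusted p = 8.07e-05), the co-receptor Boc 0.97 (SE 0.071, adjusted p = 7.35e-06) and the ligand Dhh 1.22 (SE 0.14, adjusted p = 0.000119). Without background correction these 3 lost the call, at 0.56, 0.76 and 0.47, and Dhh also with an offset of 50 (0.75). Smoothened, Smo, was detected on all 8 arrays with 149, 146, 149.9 and 146 against 157, 149, 125 and 138, overlapping between the stages, and its log2 difference of -0.78 (SE 0.11) was under 1.8-fold.

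Axin2 was the member from the Wnt list, 1 of 69 probes. It is a scaffold of the complex that degrades beta-catenin, and is itself a target of the pathway. Its raw signals were 129.8, 155, 150.1 and 130.5 in the secretory stage and 112, 107, 108 and 116 in the maturation stage. Rats 2 and 3 were higher than rats 1 and 4, all secretory-stage signals exceeded all maturation-stage signals, and the bound was 1.99-fold. Of the other 68 probes, 9 were called lower, 4 higher and 55 neither, where 3.15% of all probes were called lower and 4.6% higher. The median log2 difference of the 38 detected on all arrays of a stage was -0.05. Among those lower, the Wnt-binding protein Sfrp2 had signals of 2746, 4278, 4515 and 3946 against 806, 496, 797 and 764 and a log2 difference of -3.09 (SE 0.22, limma adjusted p = 5.72e-06). Sostdc1, a secreted antagonist of BMP and Wnt ligands, had 2981, 3574, 3659.8 and 3925 against 1381, 830.4, 1165 and 1011 and -2.25 (SE 0.16, adjusted p = 6.26e-06). Both kept signals above the limit in the maturation stage, as did the transcription factor Tcf7 (-2.36, adjusted p = 8.04e-07) and the planar polarity genes Celsr2 (-3.58, adjusted p = 2.41e-08), Vangl2 (-1.46, adjusted p = 9.83e-06) and Prickle1 (-0.91, adjusted p = 8.75e-06, with the fold under 1.8 under median scaling, -0.61, cyclic loess, -0.84, and no normalization between arrays, -0.42). Celsr1, at -1.49 (adjusted p = 1.11e-06), was detected on 1 maturation-stage array, and its fold was under 1.8 without background correction (-0.54).

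The Wnt antagonist Dkk1 was undetected on all maturation-stage arrays and missed the secretory-only rule by secretory array 1. Its signals were 108, 152, 199 and 257 in the secretory stage and 116, 104, 119.6 and 109 in the maturation stage, so rat 1 overlapped the maturation stage and rat 4 was the brightest. The bound for Dkk1 on the normalized scale was 2.80-fold, and the fitted log2 difference was -1.83 (limma adjusted p = 0.0284). The adjusted p rose to between 0.0558 and 0.0777 without secretory array 3 or 4 or without maturation array 1, 2 or 4. With an offset of 50 it was 0.0656, at a log2 difference of -1.13. Without background correction its fold was under 1.8 (-0.80). Wnt10a, detected on 3 of the 4 maturation-stage arrays, had a log2 difference of -0.90 (adjusted p = 0.00731), with its fold under 1.8 without secretory array 1 (-0.78) or maturation array 3 (-0.76), under median scaling (-0.72), with normexp without negative controls (-0.70), without background correction (-0.33), with an offset of 50 (-0.54) and without normalization between arrays (-0.52, adjusted p = 0.0807). The 4 called higher were the receptor Fzd1 (1.15, adjusted p = 0.000329) and the ligands Wnt5a (1.57, adjusted p = 7.92e-07), Wnt10b (1.96, adjusted p = 5.52e-07) and Wnt2 (1.61, adjusted p = 0.000723, with a fold under 1.8 without background correction, 0.66, and detected on 2 of the 4 secretory-stage arrays). Genes of the Wnt list thus lay on both sides, with 9 called lower and 4 higher.

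**Figure D3:**
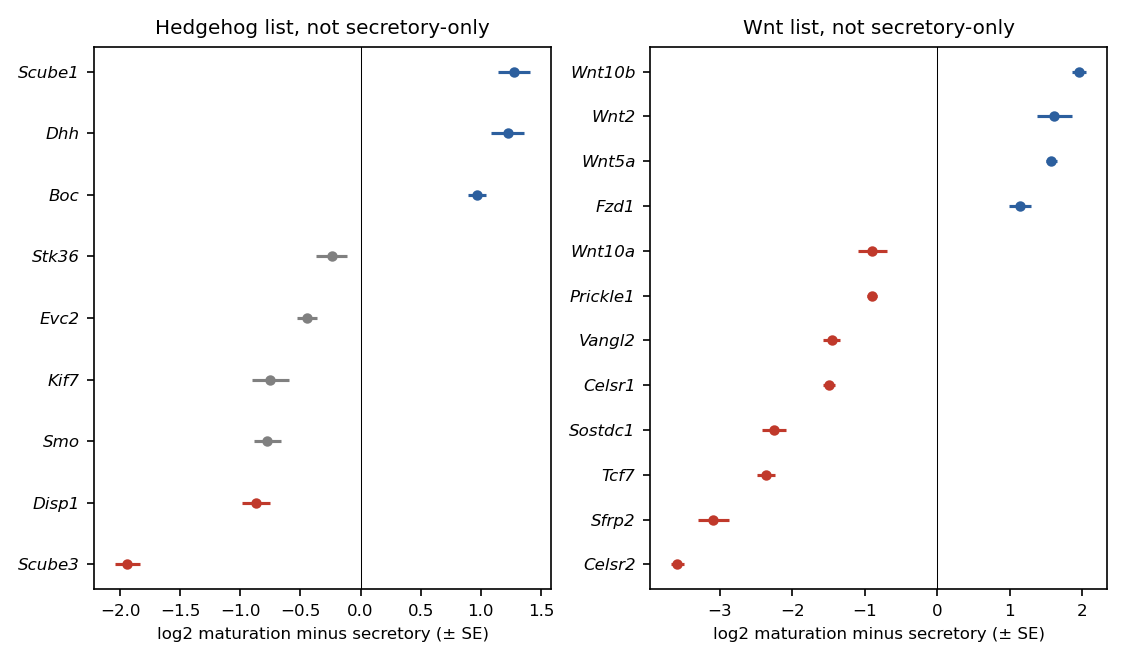
Difference of normalized log2 values, maturation minus secretory stage, with its SE, for probes of the hedgehog list detected on all 4 arrays of at least 1 stage (left) and for probes of the Wnt list that were also called (right), without the secretory-only members (n = 4 arrays a stage; red called lower, blue called higher, grey no call). Scube3 and Celsr2 lay furthest to the left, at -1.94 and -3.58, and Scube1 and Wnt10b furthest to the right, at 1.28 and 1.96.

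Both of the brightest members code for proteins of the cell surface. Ly6d, a small surface protein held by a lipid anchor, gave raw signals of 927, 1067, 579 and 491 in the secretory stage and 92.2, 93.9, 99.8 and 102 in the maturation stage. Rats 1 and 2 were brighter than rats 3 and 4, no maturation-stage array came near any of them, and the bound was 25.2-fold. Scn10a, the voltage-gated sodium channel Nav1.8 known from pain-sensing neurons, gave 797, 835, 795 and 614 in the secretory stage and 112, 115, 115 and 123 in the maturation stage. Rat 4 was the lowest, the mean was 760.2 ± 99.0 (SD, n = 4), and the bound was 26.3-fold.

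Scn10a was the member among 132 probes for potassium, sodium and calcium channel subunits, of which 10 others were called lower and 6 higher. Nerve markers lay on both sides. Of 13 nerve and Schwann cell markers, 3 were called lower and 2 higher in the maturation stage. The neuronal filament genes Prph and Nefl were undetected on all 8 arrays. The summed raw signal of the 13 was 4292 to 5436 in the secretory stage and 6804 to 9763 in the maturation stage. The part of nerve tissue in the Scn10a signal was not tested.

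Lsamp, a lipid-anchored adhesion molecule of the immunoglobulin family, gave 205, 201, 186 and 162 against 125, 112, 114 and 121. All rats were above the maturation stage, and the bound was 3.93-fold. Adgrb1, an adhesion receptor that recognises dying cells, gave 116, 180.1, 154 and 143 against 111, 109, 103 and 110.2, so that rat 1 was barely above its limit and rat 2 the highest. Nlgn2, a neuroligin of inhibitory synapses, ranged from 117 to 129 in the secretory stage and 105 to 125 in the maturation stage. Amigo3, an adhesion molecule with leucine-rich repeats, ranged from 116 to 138 against 117 to 127, and both overlapped. Amph, amphiphysin, which bends membranes in endocytosis, ranged from 118 to 126 against 107 to 112 without overlap.

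Of 129 probes for cadherins, catenins and adhesion molecules, 5 were members (Adgrb1, Ctnna2, Lsamp, Ly6d and Nlgn2), and 8 of the others were called lower and 8 higher. Ctnna2, the alpha-catenin of neurons, which ties cadherins to actin, gave 144, 142, 133 and 154 on its member probe in the secretory stage and 110.2, 109, 100.2 and 114 in the maturation stage. A second Ctnna2 probe gave 5995, 5328, 5227 and 6080 in the secretory stage, and 306, 110.0, 114 and 124 in the maturation stage. It was detected on maturation array 1 and so did not meet the rule, and both probes were higher in every secretory-stage sample. N4bp2 was the other gene with a second probe, which was undetected on all 8 arrays, and its member probe ranged from 119 to 124 in the secretory stage and 114 to 129 in the maturation stage with overlap.

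Calcium handling gave 3 members of 51 probes, and of the other 48 probes 5 were called lower and 10 higher. Caln1, a calcium sensor of the calneuron family, gave 184, 153, 159 and 166 against 111, 99.6, 103 and 116. Cabp1, a calmodulin-like protein that tunes calcium channels, gave 143, 140.0, 131 and 145 against 127, 120.1, 110.5 and 121. Slc24a3, an exchanger that moves calcium out against sodium, gave 135, 149, 141 and 128 against 122, 114, 109.5 and 113. None of the 3 overlapped between the stages, and the bounds were 3.003-fold for Caln1, 1.98-fold for Cabp1 and 1.90-fold for Slc24a3. Slc24a3 was also the member among 365 solute carrier probes, of which 18 others were called lower and 40 higher.

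G protein and cyclic AMP signalling gave 4 members of 203 probes. Rgs16, which speeds the switching off of G protein alpha subunits, gave 150.3, 287, 133 and 177 against 117, 113, 115 and 116. Rat 2 stood above the other rats, and all 4 exceeded the maturation stage. Pde4b, a phosphodiesterase that degrades cyclic AMP, was more even, with 198, 198, 164 and 178 against 126, 117, 117 and 115. The bounds were 3.29-fold and 3.77-fold. Nmbr, the receptor for neuromedin B, ranged from 125 to 138 in the secretory stage and 96.8 to 112 in the maturation stage without overlap, whereas Ptger3, a prostaglandin E2 receptor, overlapped (122 to 147 against 115 to 124). Of the other 199 probes 9 were called lower and 14 higher.

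Transcription and chromatin genes gave 5 members of 468 probes, and Hesx1 and Zfpm2, which the list did not hold, were added after their values were seen. Hesx1, a homeobox repressor of pituitary and forebrain development, gave 166, 178, 194 and 176 against 109, 118, 109 and 108. Dpf3 and Dpf1, related subunits of BAF chromatin remodelling complexes, gave 165, 177, 162 and 169 against 110.0, 101, 101 and 107 and 176, 170.1, 163 and 159 against 127, 126, 116 and 119. In these 3 genes the rats lay close together and well above the maturation stage, and the bounds were 3.55-fold, 3.15-fold and 3.08-fold.

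The other transcription factors were near the limit. Dlx6, a homeobox factor of jaw patterning, gave 119, 127, 127 and 118 against 114, 109.7, 111 and 106, without overlap. Foxi3, a forkhead factor of ectodermal organs, gave 131, 119.5, 127 and 131 against 123, 113, 111 and 123, with overlap. The GATA cofactor Zfpm2 (123 to 138 against 119.7 to 129) and the zinc finger protein Zfp711 (117 to 122 against 109.8 to 127) overlapped as well, and Zfp711 had the lowest bound of all members. Of the other 463 probes of the list, 11 were called lower and 9 higher.

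Matrix and matrix receptor genes gave 3 members of 98 probes. Itga10, the alpha chain of a collagen-binding integrin, gave 155, 163, 155 and 149.7 against 118, 117, 119 and 123, with a bound of 2.62-fold. Col23a1, a collagen anchored in the membrane, gave 131, 137, 151 and 138 against 117, 126, 117 and 119.9, also without overlap, with a bound of 1.95-fold. Col9a2, a chain of cartilage collagen IX, gave 119.6, 136, 126 and 130.1 against 121, 113, 111 and 114, and rat 1 overlapped the maturation stage. Of 8 other cartilage marker probes, Col11a2 was called lower (log2 -1.74, adjusted p = 1.38e-05) and none higher, and the defining markers Col9a1 and Matn3 were undetected on all 8 arrays. The summed raw signal of the cartilage list, Col9a2 included, was 1158 to 1264 in the secretory stage and 1134 to 1265 in the maturation stage. Of the other 95 matrix probes, 10 were called lower and 15 higher.

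Among secreted proteins and enzymes, Igfbpl1, related to the binding proteins of insulin-like growth factors, gave 231, 266, 271 and 184 against 117, 114, 118 and 111. All rats were clear of the maturation stage, and the bound was 5.79-fold. Cela3b, a serine protease of the pancreatic elastase family, gave 184, 170.0, 181 and 298 against 105, 103, 100.4 and 106. Rat 4 was well above the other rats, which lay close together, and the bound was 4.41-fold. F2, prothrombin, gave 163, 159.6, 170.1 and 143 against 119.9, 120.0, 118 and 109.6, without overlap. Cela3b and F2 were the members among 199 protease probes, of which 4 others were called lower and 14 higher. Vwde, a protein with von Willebrand factor and EGF domains, gave 143, 129, 305 and 229 against 111, 108, 109 and 111, so that rats 3 and 4 were brighter than rats 1 and 2.

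Ass1, an enzyme of arginine synthesis (121 to 145 against 105 to 118), Gapdhs, the sperm form of a glycolytic enzyme (122 to 161 against 108 to 121), and Erp27, a chaperone-like protein of the endoplasmic reticulum (136 to 141 against 109 to 116), did not overlap between the stages. Doxl1, a diamine oxidase relative (119 to 128 against 109 to 118), did not overlap either, and the peptidase inhibitor relative Pi15 did (119 to 128 against 108 to 128). Adipoq, the fat cell hormone adiponectin, gave 161, 125, 132 and 121 against 110.3, 106, 107 and 117, with rat 1 above the others. Of the other 6 fat cell markers, Cfd was called higher in the maturation stage (log2 1.48, adjusted p = 5.8e-06), none was called lower, and Lep was undetected on all 8 arrays. The summed raw signal of the fat cell list was 1198 to 1261 in the secretory stage and 2319 to 2961 in the maturation stage.

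Inside the cell, Rassf3, a Ras-association domain protein, gave 179, 191, 174 and 165 against 127, 125, 115 and 123 with a bound of 3.51-fold. Ptpn3, a tyrosine phosphatase (133 to 149.6 against 112 to 121), Sytl4, a protein of secretory granules (125 to 131 against 112 to 124), Rtn4ip1, a mitochondrial protein (129.9 to 134 against 116 to 128), Spata20 (124 to 138 against 107 to 121) and Lbhd2 (124 to 166 against 99.9 to 120.4) did not overlap between the stages. The centrosomal protein Nin, the actin-related protein Actr3b, Ankrd29, Lrrc72 and C19h4orf51 overlapped, with secretory-stage signals between 117 and 173.

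Another 7 members are predicted loci that the gene table did not hold. The brightest, LOC503409, gave 415, 298, 279 and 579.5 against 112, 119.7, 119.7 and 125, with rats 1 and 4 above rats 2 and 3 and a bound of 11.3-fold. LOC503396, described like it in the annotation as similar to Ac1147, was near the limit (118 to 132 against 117 to 127), and whether either probe also binds related transcripts was not tested. LOC501937 (140.5 to 154), LOC306577 (134 to 162), RGD1307961 (130.3 to 140.0) and LOC691491 (129 to 139.9) did not overlap with the maturation stage, and LOC361556 (119 to 131 against 120.5 to 127) did. In all, 66.1% of the members rested on a predicted transcript model, against 59.1% of all probes. No member came from the lists of connexins (18 probes), cell cycle and centrosome genes (47 probes) or cytochromes P450 and steroid enzymes (128 probes). With 59 members among 22523 probes, lists of this size would hold few members or none. Nothing is therefore read from these absences or from the number of members in a list.

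The ratio of the highest to the lowest raw secretory-stage signal had a median of 1.15 over the members. The raw signals include the background, near 100.5 to 102 on these arrays, which holds such a ratio near 1 for dim probes. The ratio reached 2.37 for Vwde, 2.17 for Ly6d, 2.16 for Rgs16, 2.07 for LOC503409 and 1.75 for Cela3b. On normalized log2 values, which are background-corrected, the SD among secretory-stage arrays was 0.036 for Rtn4ip1, the lowest of the members, 0.71 for Adgrb1 and 1.17 for Vwde, the highest. The highest secretory-stage signal was that of rat 2 for 24 members, rat 3 for 15, rat 1 for 10 and rat 4 for 10. The 5 genes with the largest ratios did not share an order of rats: the brightest rat was rat 3 for Vwde, rat 2 for Ly6d and Rgs16, and rat 4 for LOC503409 and Cela3b.

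**Figure D4:**
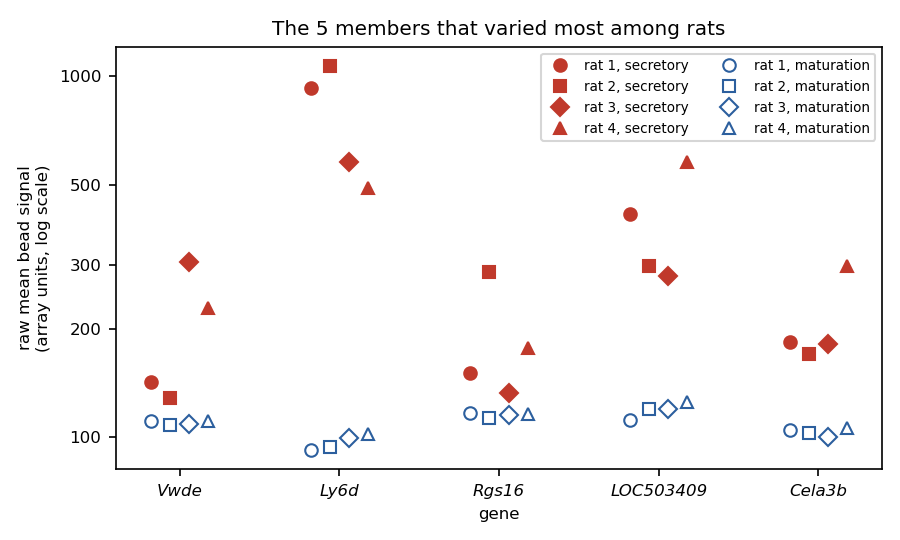
Raw mean bead signal (array units, log scale) of the 5 members with the largest ratio between rats, by rat (symbol), in the secretory stage (filled) and the maturation stage (open). Maturation-stage signals lay between 92.2 and 125 in all 5 genes, below every secretory-stage signal of the same gene.

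Bead spread gives the error within an array. Members were read by 22 to 67 beads per array. On all 4 secretory-stage arrays, 34 members lay more than 2 standard errors of the bead signals above the detection limit, whereas 19 came within 1 standard error of it on at least 1 array. Just inside the secretory-stage threshold were Adgrb1 and Zfp711, each with a highest detection p of 0.0485, and Nlgn2 (0.0461). Just outside were Cacnb1 (0.0509), Misp3 (0.0509) and Tspoap1 (0.0521). On the maturation-stage side, Lrrc72 and Zfpm2 (lowest detection p of 0.0521 each) and Col23a1 (0.0533) were just inside, and Serpinb3 (0.0473), Slc22a7 (0.0461) and Rhpn2 (0.0448) just outside. A further 66 probes were detected on 3 of 4 secretory-stage arrays and no maturation-stage array, and 50 on all secretory-stage arrays and 1 maturation-stage array.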

How the data were processed

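Enamel organ RNA was hybridized to 8 Illumina RatRef-12 v1 arrays, 4 from each stage. The authors deposited mean bead signals as intensity, not background-corrected or normalized, with a detection p-value, the number of beads and the bead standard error of each probe. The array software and genome build are not given in the sources used here. Arrays were assigned to stages by title, description and tissue. The source field of maturation replicates 2, 3 and 4 names the other stage, and every array correlated more with its labelled stage (at least 0.990 over 11233 probes) than with the other (at most 0.949).

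Signals summed to 11881691 to 12046793 on secretory-stage and 13355073 to 16122665 on maturation-stage arrays, and the median probe was read by 41 to 42 beads. The number of arrays limits the precision.

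Background correction used neqc (limma 3.58.1, R 4.3.3), which derives the negative controls from detection p-values. An offset of 16 was added before quantile normalization and log2 transformation. All 22523 probes were fitted with lmFit and eBayes and adjusted by Benjamini-Hochberg, a step checked on simulated data. Calls needed an adjusted p below 0.05 and a fold of at least 1.8. Current symbols came from the GRCr8 gene table by gene ID, for 52 of the 59 members. Promoters are RefSeq's on GRCr8. Signs run maturation minus secretory.

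The members and gene lists were chosen with earlier results of these data known. Named are the 15 brightest members, members in a list, those with a second probe, those nearest the thresholds and the 5 most variable, with called hedgehog and Wnt genes. The other members were named after their values were seen, and 1 is not reported here. Each rat gave both stages, so replicate numbers pair the samples. Deviations from the stage means correlated at 0.195, 0.129, 0.219 and 0.234 within rats, against means of -0.080 to -0.041 with other rats. The fit was unpaired, with the rat as a block as an alternative, besides other background corrections, normalizations, detection thresholds and each array left out.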

Additional observations from a re-analysis of the deposited data

Results flagged for a closer look

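In 92 sets of 4 raw signals (the secretory-stage signals of the 59 members, both stages of the second probes of Ctnna2 and N4bp2, and the stages of the called hedgehog and Wnt genes in which they were detected on all arrays), 3 held an array that stood far from the other arrays of its stage by Dixon's gap ratio (95% level). Chance flags about 1 in 20 such sets. Cela3b was at 298 on secretory array 4, against 170.0 to 184 on the other secretory-stage arrays. The second Ctnna2 probe was at 306 on maturation array 1, against 110.0 to 124 on the other maturation-stage arrays, and this array kept it out of the secretory-only set. Sfrp2 was at 496 on maturation array 2, against 764 to 806 on the other maturation-stage arrays.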

How the results depend on the processing

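The number of secretory-only probes depended on the detection threshold. It was 27 in place of 59 with a detection p below 0.01 in the secretory stage, 32 with 0.1 or more in the maturation stage and 16 with both, and 9 of the 15 brightest members were among these 16. It was 67 to 82 with each array left out of the rule in turn, a laxer rule by construction. Counting symbols, or asking for 20 beads on every array, left it at 59. The alternatives chosen after seeing the data gave 43 (no overlap of raw signals) and 59 (no overlap of normalized values). The number of members called lower, 42, was 13 without background correction and 21 with an offset of 50, both of which shrink folds of dim probes. It was 35 to 42 under the other normalizations, tests, filter and bound, 41 with the methods' t-test on the normalized values after Benjamini-Hochberg (42 unadjusted), 42 with the rat as a block, which pairs the samples, and 42 to 44 with each array left out. The median raw signal of 139 was 37.2 after subtraction of the median signal of undetected probes, 146 after scaling the arrays to a common median, and 138 to 141 with a secretory-stage array left out. The median bound of 0.96 (log2) was 0.73 with normexp without negative controls, 0.33 without background correction, 0.54 with an offset of 50, 0.84 with median scaling, 0.87 with the 5th percentile of detected values as the floor, and 0.92 to 1.01 with an array left out. Without normalization between arrays the median of all probes shifted to 0.13 (log2), and the number called was 35. All 59 members kept a fitted difference below 0 under these normalizations. Of the called hedgehog and Wnt genes that were no members, Scube1, Scube3, Boc, Dhh, Disp1, Wnt2, Wnt10a, Dkk1 and Celsr1 lost the call without background correction, and Dhh, Disp1, Wnt10a and Dkk1 with an offset of 50; each kept its direction. Signal over background limits what can be said of dim members: 19 of them came within 1 bead standard error of the detection limit on a secretory-stage array.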
